A study of Mus musculus with 9 samples.

Results

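Histone lysine methyltransferase and demethylase genes were examined in mouse myeloid cells with and without the SHP2 inhibitor SHP099. The genes were chosen by symbol, as the KMT2 and SETD families, Nsd1, Whsc1 and Whsc1l1, Ezh1 and Ezh2, Ehmt1 and Ehmt2, the Suv39h genes, Dot1l, Ash1l and the KDM1 to KDM8 demethylases. The deposited counts list 24421 gene symbols, of which 45 matched, and 44 had at least 10 counts in at least 3 libraries. The gene left out was Kdm4d, with 1 to 10 counts per library. The deposited table uses older names for some genes: Whsc1 is Nsd2, Whsc1l1 is Nsd3 and Setd8 is Kmt5a.

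Bulk RNA sequencing covered 9 libraries in 3 groups of 3. All cells were on a C57BL/6 background and were grown for 5 days in IL-3, IL-6 and SCF (stem cell factor) from bone marrow depleted of lineage-positive cells, which gives myeloid blast-like cells. Wild-type (WT) cells received vehicle. Cells labelled Tet2-/-Flt3ITD, a genotype that joins loss of the DNA demethylase Tet2 to an activating tandem duplication in the Flt3 receptor, were given vehicle or SHP099 for 24 h. The drug holds the phosphatase SHP2, the product of Ptpn11, in its closed form, and SHP2 relays growth factor signals to RAS and ERK. The mutant cultures came from individual mice, and for WT cells the labels name no individual mice. No WT cells treated with SHP099 were analysed here, so the response to the drug was measured on the mutant background only.

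Lysine methyltransferases, most of which carry a catalytic SET domain, place methyl groups on histone tails, and demethylases of the LSD1 and Jumonji families take them off. Methylation of H3K4 and H3K36 is linked to active promoters, enhancers and transcribed gene bodies, whereas methylation of H3K9 and H3K27 is linked to silent chromatin. In blood, several of these genes are altered in leukemia: KMT2A is the target of MLL translocations, DOT1L is needed by MLL fusion proteins, and EZH2, SETD2, KDM6A and KMT2D are mutated in myeloid or lymphoid disease.

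The labels were checked against marker genes and the genes they name. The progenitor list (7 genes) summed to 12703 to 16217 CPM (counts scaled to TMM-normalised library size) in WT libraries, 14236 to 20807 in mutant vehicle libraries and 15081 to 21344 in SHP099 libraries. The mature neutrophil list (11 genes) summed to 24180 to 30610 CPM in WT libraries, above the progenitor list. It summed to 17654 to 18721 CPM in mutant vehicle and 25516 to 30502 CPM in SHP099 libraries. In WT libraries the mast cell and basophil list summed to 2104 to 2358 CPM and the megakaryocyte list to 2070 to 2590 CPM. Transcripts of maturing cells were thus also present. The lymphoid list summed to 10.8 to 14.3 CPM over all libraries. In it Cd3e, Cd3g, Cd79a and Rag1 were under 1 CPM in every library, and Cd79b (6.23 to 9.65 CPM) and Il7r (2.72 to 5.15 CPM) made up most of the sum. Tet2 stood at 33.2 ± 1.48 CPM in WT, 15.5 ± 1.30 in mutant vehicle and 12.4 ± 1.28 in mutant SHP099 cells (SD, n = 3 each). Mutant cells thus kept part of the transcript, and which part of the gene was deleted is not given in the labels, so this level is only a partial check. Flt3 transcripts were scarce, with 1.92 ± 0.505 CPM for WT libraries against 2.19 ± 0.703 CPM for mutant vehicle libraries (adjusted p = 0.673, edgeR), and a count per gene does not show the duplication. Ptpn11, whose protein the drug inhibits, differed by a log2 fold change of 0.02 ± 0.08 (SE, adjusted p = 0.874, edgeR quasi-likelihood test) between SHP099 and vehicle. Total counts ran from 27242168 to 45810089 per library. The rRNA transcript Rn45s took 0.734%, 0.658% and 4.33% of the counts in SHP099 replicates 1 to 3, more than in any mutant vehicle library (0.357%, 0.288% and 0.276%). In WT libraries it took 0.377% to 0.705%.

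All 44 genes were expressed well enough to be tested. Per kilobase of transcript, Setd8, the H4K20 monomethyltransferase, had the highest level in WT cells, at 83.1 ± 3.13 CPM per kb (SD, n = 3). It was followed by Ehmt2, which dimethylates H3K9 (48.9 ± 0.892), Ezh2, the main catalytic subunit of Polycomb repressive complex 2 (47.3 ± 1.33), and Suv39h1, which trimethylates H3K9 in heterochromatin (39.0 ± 1.25). Ehmt2 and Ezh2 did not differ beyond their spread in this order. The lowest were Kmt2a (4.50 ± 0.0986), Suv39h2 (3.78 ± 0.391), Ash1l (3.70 ± 0.104), Kdm5d (3.70 ± 0.136), Kdm1b (3.43 ± 0.100) and Setd4 (1.19 ± 0.219). Suv39h2, Ash1l and Kdm5d did not differ beyond their spread. Replicates were close: the median coefficient of variation over the 44 genes was 3.35% in WT, 3.25% in mutant vehicle and 2.94% in SHP099 libraries.

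With SHP099, 22 of the 44 genes fell and none rose (edgeR quasi-likelihood test, Benjamini-Hochberg adjustment over 13270 genes, threshold 0.05). Among all genes tested 13% fell and 8.81% rose, so the share of lysine methylation genes that fell was above that of all genes. The genes that fell included every KMT2 gene, both SETD1 genes, Dot1l, Ash1l, Nsd1 and Kdm6b. The changes were small, with log2 fold changes of -0.68 to 0.14 over the 44 genes, none past 2-fold. Their median was -0.16 (quartiles -0.30 and -0.08), against 0.00 for all genes, and 39 of 44 were below 0. By class, 13 of 22 methyltransferases, 3 of 5 other SET-domain genes and 6 of 17 demethylases fell. The summed level of the 44 genes was 4123 to 4266 CPM in vehicle libraries and 3591 to 3691 CPM in SHP099 libraries, and WT libraries lay between, at 3945 to 3999 CPM. Rn45s, a sign of how much rRNA was left in a library, was higher with SHP099 in the same comparison (log2 fold change 2.71 ± 0.67, adjusted p = 0.0189, edgeR), and its part in the falls was not tested. Without SHP099 replicate 3, the library with most Rn45s, 18 of the 44 genes fell (8.19% of all genes). SHP099 replicates 1 and 2, which stayed in that fit, also held more Rn45s than the mutant vehicle libraries. In bulk RNA, fewer cells of a type and less RNA per cell cannot be told apart.

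These genes are long, and SHP099 fold changes followed transcript length across the whole transcriptome. The median length of the longest coding transcript was 6406 nt over the 44 genes, from 1707 nt for Setd6 to 19823 nt for Kmt2d, against 3281 nt over 13188 tested genes with a length. Of the 44 genes 27 lay in the longest of 5 equal length classes of tested genes (5155 to 123179 nt), where 31.1% of all genes fell and 1.48% rose with SHP099, and 20 of those 27 fell. In the shortest class (61 to 1871 nt) 3.64% of all genes fell and 17.5% rose. As a description across genes, which are not independent replicates and share the same libraries, Spearman's rho between length and log2 fold change was -0.335 over all genes and -0.564 over the 44. A smooth trend of the values on length and GC content was therefore also removed from each library before the fit. Then 11 of the 44 genes fell (background 9.17%) and 2 rose (background 7.57%), with a median of -0.06. The 11 were Ash1l, Dot1l, Ehmt2, Kdm2b, Kdm6b, Kmt2a, Kmt2b, Kmt2c, Setd1a, Setd1b and Setd6. Whether the trend is a property of the libraries or of the cells was not tested.

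**Figure D1:**
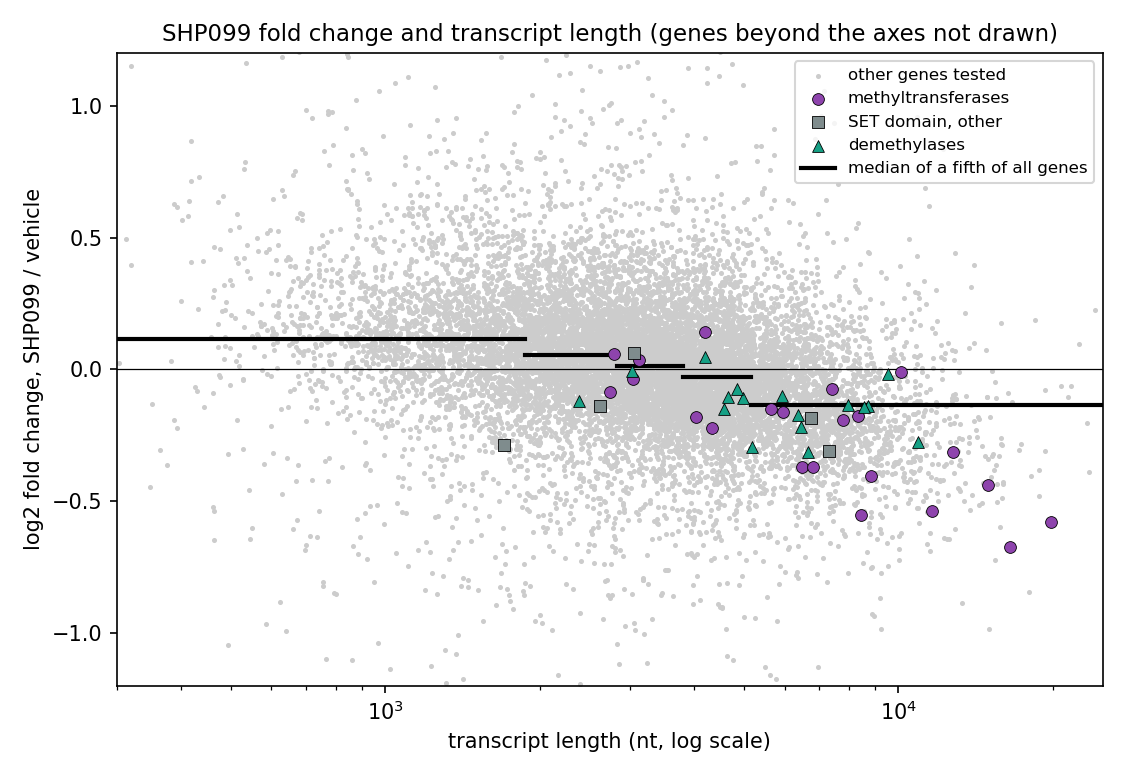
Log2 fold change of SHP099 against vehicle in mutant cells (vertical axis) against the longest coding transcript in nt (log horizontal axis) for the genes tested, with the 44 lysine methyltransferase and demethylase genes drawn by class and black lines for the median of all genes in each of 5 equal length classes; genes beyond the axes are not drawn. Long transcripts sit lower, and 27 of the 44 genes lie in the longest of 5 length classes, at 5155 nt and above.

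Of the 7 H3K4 methyltransferases 6 fell, with a median log2 fold change of -0.44, and Setd7, a monomethyltransferase outside the COMPASS complexes, was at -0.08 (adjusted p = 0.243). The summed level of Kmt2a to Kmt2d, Setd1a and Setd1b was 605 to 686 CPM in vehicle libraries and 438 to 465 CPM in SHP099 libraries, with WT libraries at 585 to 606 CPM.

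Kmt2a encodes MLL1, the H3K4 methyltransferase that maintains Hox gene expression in hematopoietic progenitors (chromosome 9, 44803355 to 44881296, GRCm38). It read 92.0, 80.2 and 73.8 CPM in vehicle replicates 1 to 3 and 54.1, 48.9 and 51.0 CPM in the SHP099 replicates, a log2 fold change of -0.68 ± 0.07 (SE, adjusted p = 0.000529, edgeR). The WT libraries, at 72.2, 74.6 and 75.4 CPM, lay above every SHP099 library and overlapped the vehicle group, in which replicate 1 was the highest. With the length and GC trend removed the log2 fold change was -0.37 (adjusted p = 0.00645, edgeR).

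Kmt2b, the closest paralog of Kmt2a (chromosome 7, 30568858 to 30588726), read 117, 112 and 111 CPM with vehicle and 80.7, 76.8 and 74.6 CPM with SHP099 (-0.55 ± 0.05, adjusted p = 0.000236, edgeR). The WT libraries stood at 108, 109 and 117 CPM, and overlapped the vehicle group. The trend-removed log2 fold change of Kmt2b was -0.33 (adjusted p = 0.00283, edgeR).

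Kmt2c and Kmt2d encode MLL3 and MLL4, which place H3K4 monomethylation at enhancers. Kmt2c (chromosome 5, 25271798 to 25498783) read 77.4, 72.1 and 67.1 CPM with vehicle and 52.8, 54.4 and 52.3 CPM with SHP099 (-0.44 ± 0.05, adjusted p = 0.000585, edgeR). Kmt2d (chromosome 15, 98831669 to 98871204) read 183, 149 and 147 CPM with vehicle and 112, 105 and 104 CPM with SHP099 (-0.58 ± 0.08, adjusted p = 0.00133, edgeR). In both genes the groups did not overlap, and vehicle replicate 1 was the highest library. With the trend removed over all 9 libraries Kmt2c kept its call at -0.15 (adjusted p = 0.0381, edgeR). Kmt2d, the longest of the 44 transcripts, lost it there at -0.19 (adjusted p = 0.0641, edgeR). Kmt2c passed in 20 and Kmt2d in 18 of 21 alternatives, and the difference between these genes was not tested.

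Setd1a and Setd1b are the catalytic subunits of the complexes that trimethylate H3K4 at promoters. Setd1a (chromosome 7, 127776670 to 127800122) read 132, 124 and 128 CPM with vehicle and 101, 99.6 and 97.2 CPM with SHP099 (-0.37 ± 0.04, adjusted p = 0.000447, edgeR). Setd1b (chromosome 5, 123142193 to 123168629) read 84.0, 76.4 and 78.1 CPM with vehicle and 65.3, 56.2 and 58.7 CPM with SHP099 (-0.40 ± 0.06, adjusted p = 0.00194, edgeR). All SHP099 libraries lay below all vehicle libraries in both genes, and both kept their calls with the trend removed, at -0.22 (adjusted p = 0.00691) for Setd1a and -0.17 (adjusted p = 0.0397) for Setd1b.

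Dot1l, the H3K79 methyltransferase (chromosome 10, 80755206 to 80795461), read 123, 125 and 125 CPM with vehicle and 97.9, 92.2 and 98.4 CPM with SHP099. That is a log2 fold change of -0.37 ± 0.04 (SE, adjusted p = 0.000445, edgeR), and -0.21 with the trend removed (adjusted p = 0.00608). WT libraries stood at 125, 130.1 and 123 CPM, so WT and mutant vehicle cells overlapped and the SHP099 libraries lay below both.

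**Figure D2:**
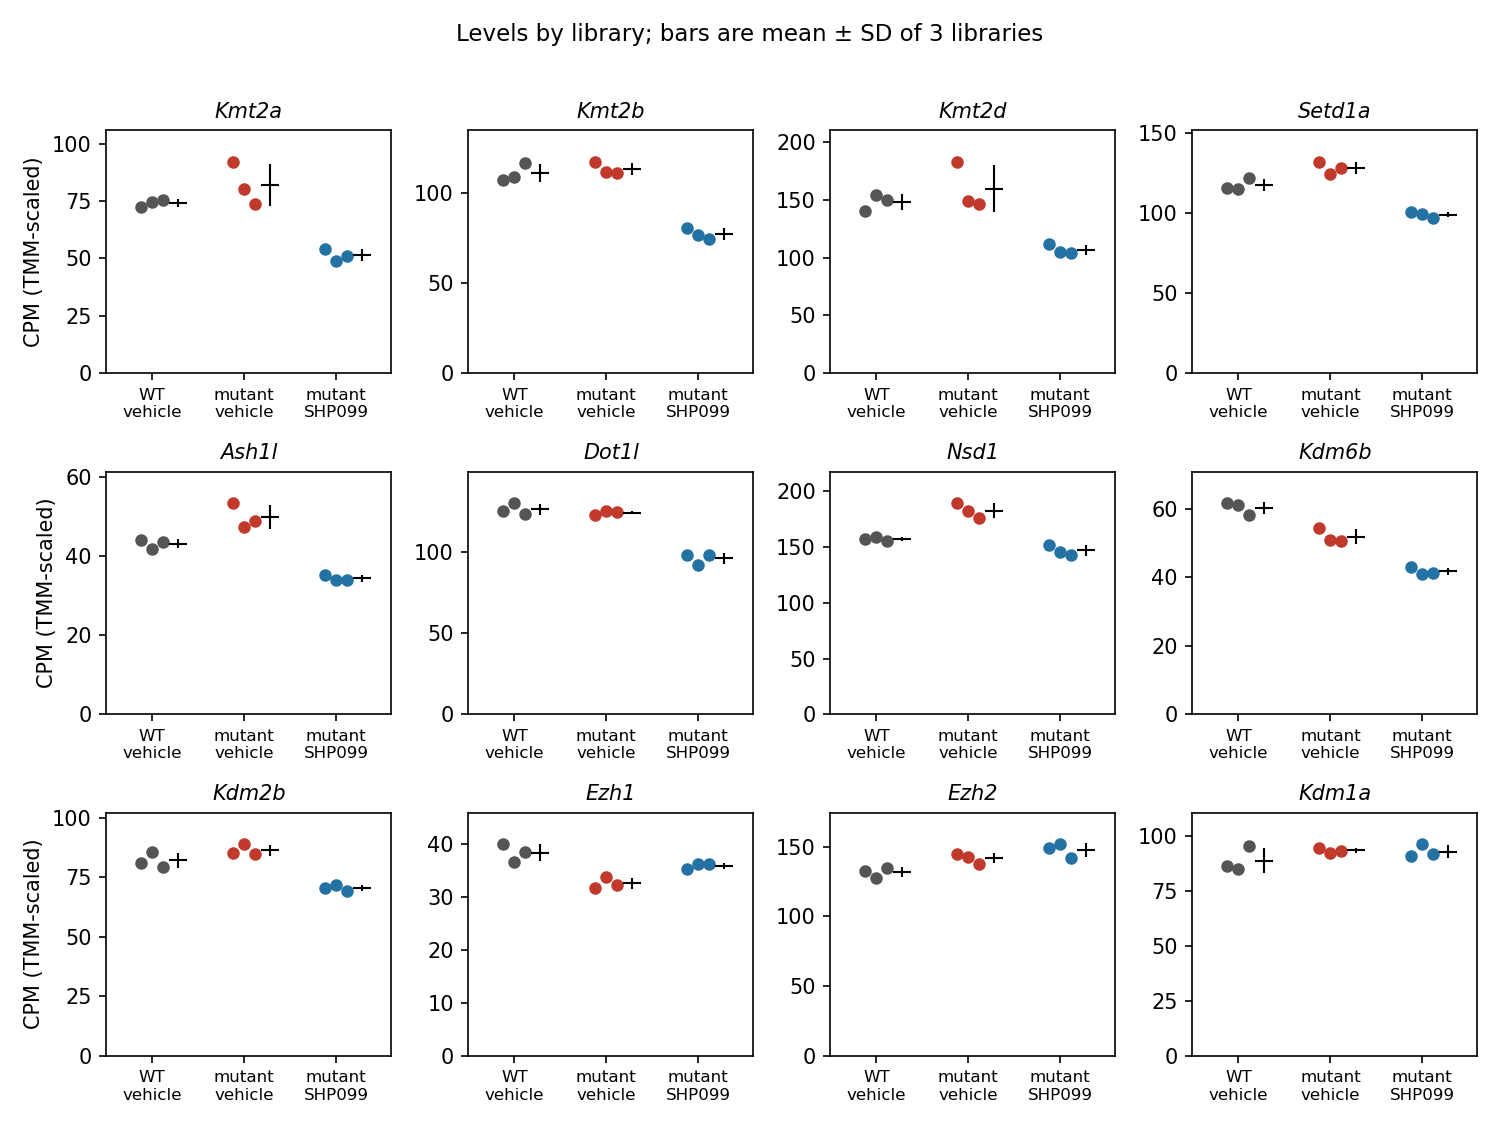
CPM in each library (vertical axes, from 0) for 12 of the genes, by group (WT vehicle, mutant vehicle, mutant SHP099); points are the 3 replicates and crosses the mean ± SD. In Kmt2a the SHP099 libraries sit at 48.9 to 54.1 CPM, under the vehicle range of 73.8 to 92.0 CPM, whereas Ezh2 and Kdm1a overlap between vehicle and SHP099.

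Promoter sequence is shown for Kmt2a and Dot1l, which fell under every setting tried and whose 250 bases before the RefSeq start (GRCm38.p6, 5′ to 3′ on the gene's strand) were in the promoter table. Capitals mark a match to the ETS core CCGGAAG on either strand; the E-box CACGTG was also searched. The Kmt2a window is chr9:44881290-44881539 on the minus strand (76.8% GC) and the Dot1l window chr10:80754953-80755202 on the plus strand (78.4% GC).
Kmt2a: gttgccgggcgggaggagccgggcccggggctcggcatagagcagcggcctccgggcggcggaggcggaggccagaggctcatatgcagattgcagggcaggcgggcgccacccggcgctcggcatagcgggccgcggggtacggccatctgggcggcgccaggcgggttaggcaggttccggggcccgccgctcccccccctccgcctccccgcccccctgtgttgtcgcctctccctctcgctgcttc
Dot1l: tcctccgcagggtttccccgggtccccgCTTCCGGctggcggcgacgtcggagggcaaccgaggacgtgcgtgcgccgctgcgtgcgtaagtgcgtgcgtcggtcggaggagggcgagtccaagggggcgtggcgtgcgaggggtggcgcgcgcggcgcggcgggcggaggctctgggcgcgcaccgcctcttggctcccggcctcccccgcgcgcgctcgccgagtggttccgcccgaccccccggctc
Kmt2a held neither motif, and Dot1l held 1 ETS match on the reverse complement, starting at position -222 from the start site. Of the 44 genes 32 matched the promoter table. The ETS core was in 6 of these 32, namely Dot1l, Kdm3a, Kdm7a, Setd4, Setd6 and Setdb1, and in 15.4% of the 10072 tested genes with a promoter in the table. Among the 12 matched genes that fell with SHP099, 2 held it. The E-box was in 3 of the 32 (Ehmt2, Kdm4c and Kdm6a) and in 9.72% of the 10072. A match of letters is a description of the window and no measure of binding.

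Of the 5 H3K36 methyltransferases 4 fell. Ash1l, a trithorax-group enzyme (chromosome 3, 88950622 to 89079375), read 53.3, 47.3 and 48.9 CPM with vehicle and 35.2, 33.8 and 33.9 CPM with SHP099 (-0.54 ± 0.05, adjusted p = 0.000392, edgeR). All 3 WT libraries, at 44.0, 41.7 and 43.5 CPM, lay between the mutant groups. Ash1l kept its call with the trend removed, at -0.29 (adjusted p = 0.00405, edgeR).

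Nsd1, which dimethylates H3K36 and is fused to NUP98 in some leukemias (chromosome 13, 55209782 to 55318325), read 189, 183 and 176 CPM with vehicle and 152, 146 and 143 CPM with SHP099 (-0.31 ± 0.04, adjusted p = 0.000876, edgeR). The groups were apart, but the trend-removed value of this 12784-nt transcript was -0.05 (adjusted p = 0.398). Setd2, which trimethylates H3K36 in transcribed genes, read 174, 165 and 160.1 CPM with vehicle and 151, 149.7 and 141 CPM with SHP099 (-0.18 ± 0.04, adjusted p = 0.0161, edgeR). Its sign turned with the trend removed, to 0.0061 (adjusted p = 0.932), and its call was lost without vehicle replicate 1 or without SHP099 replicate 3.

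Whsc1, the H3K36 dimethyltransferase of multiple myeloma translocations, fell by 0.19 ± 0.04 on the log2 scale (adjusted p = 0.0047, edgeR), and lost its call with the trend removed. Its paralog Whsc1l1 was at -0.01 ± 0.03 (adjusted p = 0.838, edgeR), with vehicle libraries at 87.0 to 87.5 CPM and SHP099 libraries at 85.2 to 87.2 CPM. With the trend removed, Whsc1l1 was 0.21 higher (adjusted p = 0.0031, edgeR). Its transcript is 10105 nt long.

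The H3K27 methyltransferases did not share the fall, but their transcripts are shorter than those of the H3K4 and H3K36 enzymes that fell. Ezh2 (2787 nt) and Ezh1 (4207 nt) lie in length classes where 6.11% and 15% of all genes fell with SHP099. The H3K4 and H3K36 enzymes that fell lie in the longest class, where 31.1% did. Histone mark and transcript length cannot be told apart in this contrast. Ezh2 (chromosome 6, 47530139 to 47595341) read 145, 143 and 138 CPM with vehicle and 149, 152 and 142 CPM with SHP099 (0.06 ± 0.04, adjusted p = 0.344, edgeR), and the groups overlapped. Ezh1, its paralog, more prominent in non-dividing cells (chromosome 11, 101191115 to 101226463), read 31.7, 33.8 and 32.2 CPM with vehicle and 35.3, 36.3 and 36.2 CPM with SHP099 (0.14 ± 0.05, adjusted p = 0.0677, edgeR). It was the only one of the 44 genes whose SHP099 libraries all lay above the vehicle libraries, as 18.3% of all genes did. Ezh1 passed the threshold in 9 of 21 alternatives, with adjusted p-values from 0.0072 to 0.163, and at 0.16 (adjusted p = 0.0389) with the trend removed.

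Among the 6 H3K9 methyltransferases 2 fell, Ehmt1 (-0.16 ± 0.03, adjusted p = 0.0103) and Ehmt2 (-0.18 ± 0.03, adjusted p = 0.00411), whose products form the GLP-G9a heterodimer. Ehmt2 kept its call with the trend removed, and Ehmt1 lost it there and without SHP099 replicate 3. Setdb1, Setdb2, Suv39h1 and Suv39h2 did not pass, with adjusted p-values of 0.0541, 0.712, 0.633 and 0.0939, and Setd8, the H4K20 enzyme, had 0.155. Of the SET-domain genes with little or no known histone lysine activity, Kmt2e (-0.31 ± 0.06, adjusted p = 0.00499), Setd5 (-0.19 ± 0.03, adjusted p = 0.00486) and Setd6 (-0.29 ± 0.08, adjusted p = 0.0245) fell, whereas Setd3 and Setd4 did not pass. With the trend removed over all libraries Kmt2e (-0.16, adjusted p = 0.0637, edgeR) and Setd5 (-0.06, adjusted p = 0.207, edgeR) lost their calls. Setd6, which methylates the NF-kappaB subunit RelA, was the shortest of the 44 transcripts, and was at -0.36 with the trend removed. Its call was lost without vehicle replicate 2 or 3 and without SHP099 replicate 1 or 3.

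**Figure D3:**
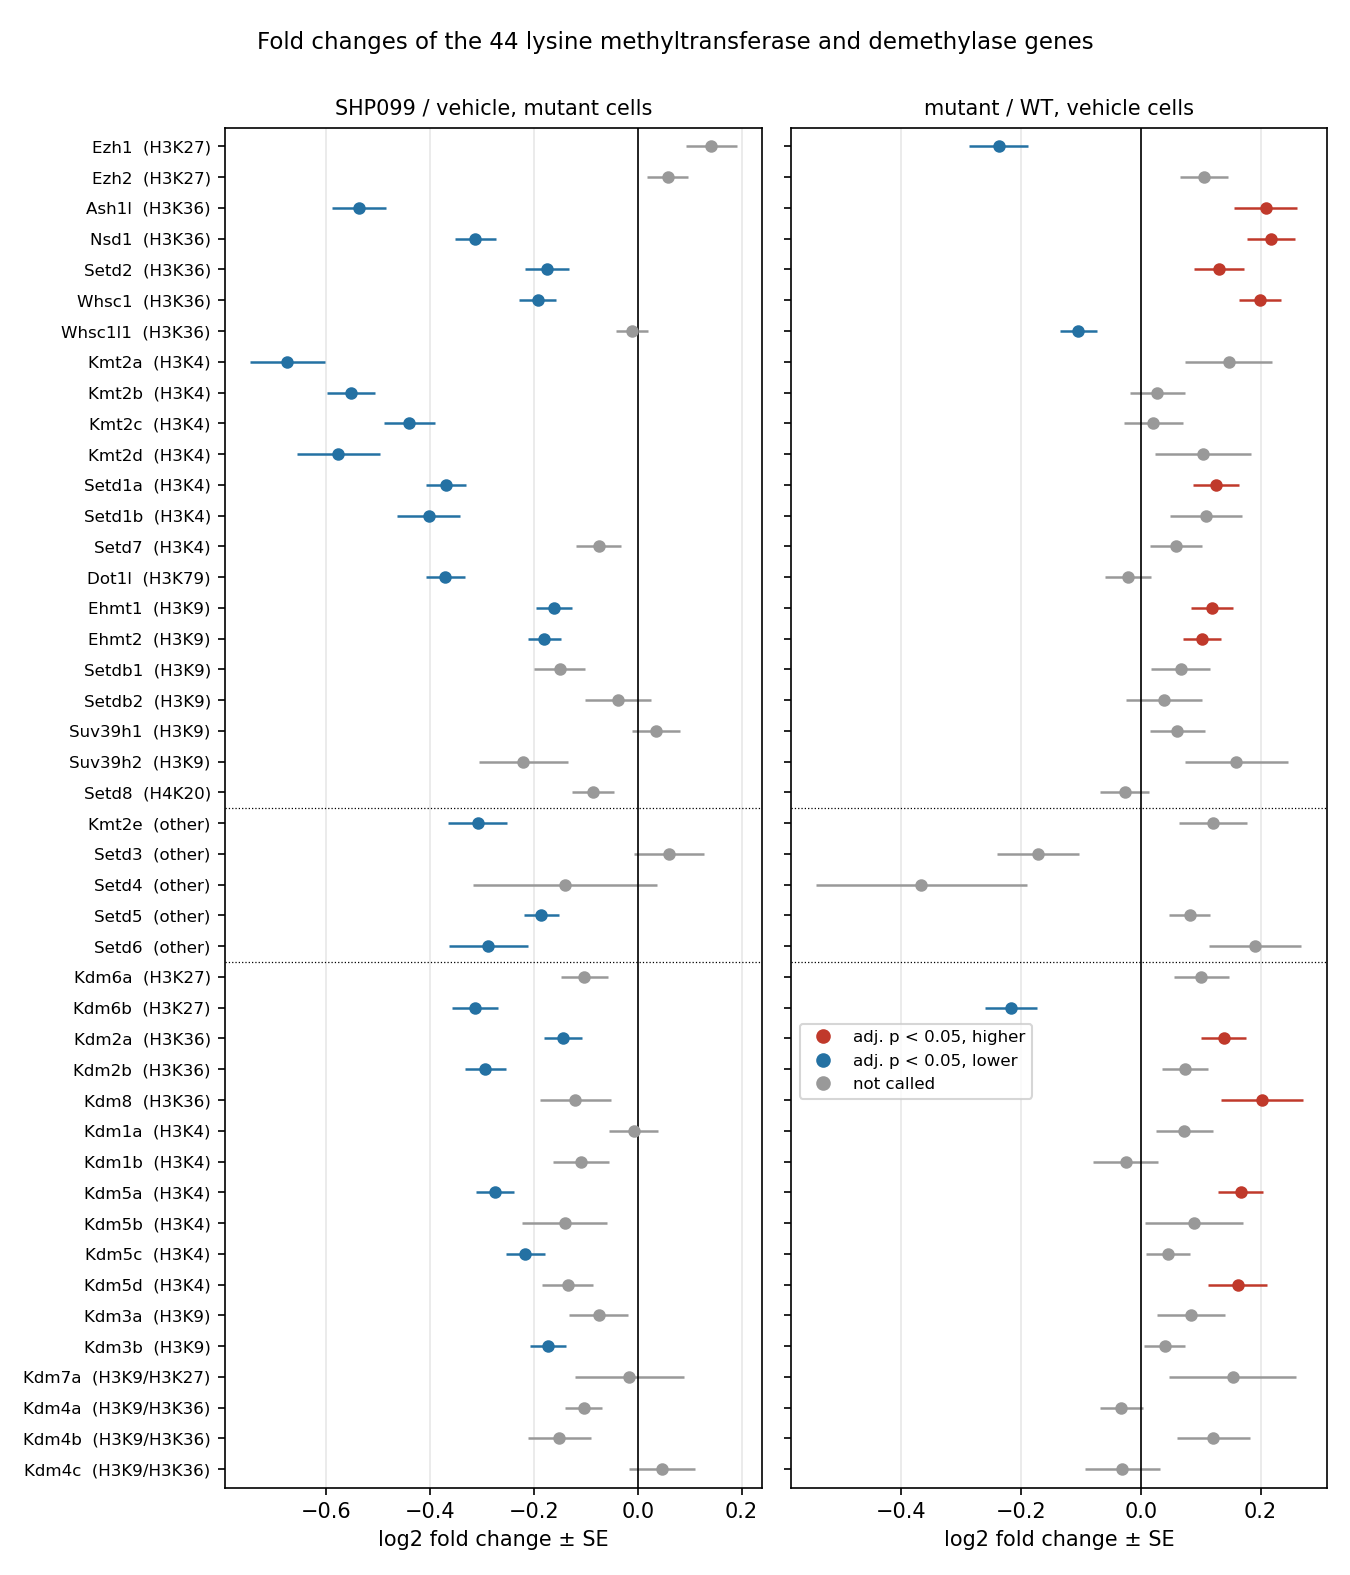
Log2 fold changes with standard errors (horizontal axes) of the 44 genes for SHP099 against vehicle in mutant cells (left) and mutant against WT vehicle cells (right), ordered by class and histone residue; colour marks an adjusted p under 0.05. On the left 22 genes are lower and none higher, and on the right 11 are higher and 3 lower.

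Demethylases fell in 6 of 17 cases. Kdm6b (JMJD3), which removes H3K27 methylation in myeloid activation and differentiation (chromosome 11, 69398508 to 69413675), read 54.4, 50.8 and 50.6 CPM with vehicle and 43.0, 41.1 and 41.2 CPM with SHP099 (-0.31 ± 0.04, adjusted p = 0.00142, edgeR). Its X-linked paralog Kdm6a (UTX) read 55.1, 53.5 and 58.3 CPM with vehicle and 50.4, 53.6 and 51.4 CPM with SHP099 (-0.10 ± 0.05, adjusted p = 0.139, edgeR). The groups were apart in Kdm6b and overlapped in Kdm6a, and Kdm6b kept its call with the trend removed, at -0.14 (adjusted p = 0.0291). The difference between the paralogs was not tested.

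Kdm2b, the CxxC-domain subunit of a variant Polycomb repressive complex 1, read 85.5, 88.9 and 84.8 CPM with vehicle and 70.6, 71.8 and 69.1 CPM with SHP099 (-0.29 ± 0.04, adjusted p = 0.00111, edgeR). Kdm2b was at -0.23 with the trend removed (adjusted p = 0.0053). Its paralog Kdm2a fell by 0.14 ± 0.04 (adjusted p = 0.0224, edgeR), and was at 0.04 with the trend removed. Its call was lost without vehicle replicate 1 or 3 and without any 1 of the 3 SHP099 libraries.

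Of the 6 H3K4 demethylases Kdm5a and Kdm5c fell. Kdm5a, found as a NUP98 fusion partner in leukemia, read 105, 97.5 and 100.5 CPM with vehicle and 82.4, 82.8 and 85.3 CPM with SHP099 (-0.27 ± 0.04, adjusted p = 0.00115, edgeR). Kdm5c, on the X chromosome, read 166, 159 and 167 CPM with vehicle and 145, 137 and 142 CPM with SHP099 (-0.22 ± 0.04, adjusted p = 0.00362, edgeR). The groups were apart in both genes. Neither kept its call with the trend removed over all 9 libraries, at -0.03 (adjusted p = 0.553) and -0.10 (adjusted p = 0.0925). Kdm5a passed in 17 and Kdm5c in 18 of 21 alternatives.

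Kdm5d, the Y-linked copy of Kdm5c, read 32.2, 33.6 and 33.1 CPM with vehicle and 30.4, 29.4 and 30.3 CPM with SHP099, a difference that did not pass (-0.14 ± 0.05, adjusted p = 0.0754, edgeR). Kdm1a (LSD1), which removes H3K4 monomethylation and dimethylation and holds back myeloid differentiation genes, read 94.6, 92.3 and 92.9 CPM with vehicle and 90.6, 96.0 and 91.6 CPM with SHP099 (-0.01 ± 0.05, adjusted p = 0.928, edgeR). Of the H3K9 demethylases Kdm3b fell by 0.17 ± 0.03 (adjusted p = 0.00665, edgeR), and lost its call with the trend removed, at -0.06 (adjusted p = 0.188). Kdm1b, Kdm5b, Kdm3a, Kdm4a, Kdm4b, Kdm4c, Kdm7a and Kdm8 did not pass in this fit, which leaves the replicates unpaired. The 22 of the 44 genes that did not pass there lay between -0.22 and 0.14. With the mutant libraries alone and paired by replicate number, Kdm4a, Kdm4b, Kdm5b and Kdm5d passed as lower (adjusted p = 0.0359, 0.0206, 0.0237 and 0.0365, edgeR). In that fit 21.3% of all genes fell, and each of these genes passed in only 1 of 21 alternatives. With the trend removed over all libraries they were at -0.06, -0.07, 0.05 and 0.04 in that order, and not called.

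Counted by libraries instead of by the model, all 3 SHP099 libraries lay below all 3 vehicle libraries in 29 of the 44 genes (22.4% of all genes), above them in 1 and overlapped in 14. Mutant libraries with the same replicate number were paired. With that number as a block over all 9 libraries 22 fell and 0 rose (background 12.5% and 9.22%), and in the 6 mutant libraries alone 28 fell and 1 rose (background 21.3% and 21.5%). In the latter fit Kdm4a, Kdm4b, Kdm5b, Kdm5d, Setdb1 and Suv39h2 joined the falls, and Ezh1 was the gene that rose. With the block over all 9 libraries and the trend removed 13 fell and 1 rose (background 8.87% and 8.26%). With both the block and the removed trend in the 6 mutant libraries alone 17 fell and 3 rose (background 18.7% and 21.8%), a setting chosen after seeing the data. Ash1l, Dot1l, Ehmt2, Kdm2b, Kdm6b, Kmt2a, Kmt2b and Setd1a fell under all 21 alternatives. Of the 22 falls, 18 were kept with each library left out in turn. Markers of mature neutrophils moved in the same comparison: 4 of 11 rose and their sum was 17654 to 18721 CPM in vehicle and 25516 to 30502 CPM in SHP099 libraries, and their part in the result was not tested. The mast cell and basophil list rose in 4 of 9 genes, from 1104 to 1563 CPM up to 1603 to 2079 CPM. Of 6 megakaryocyte genes Pf4 (0.52) and Gp1bb (0.63) rose, and the list summed to 1005 to 1302 CPM in vehicle and 1209 to 1526 CPM in SHP099 libraries. The erythroid list rose in none of 5 tested, with Hbb-bt and Hba-a1 at 0. Of 7 progenitor markers Cd34 rose (log2 fold change 0.34, adjusted p = 0.0189, edgeR) and 0 fell. Among all genes 8.81% rose in this fit over all 9 libraries.

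**Figure D4:**
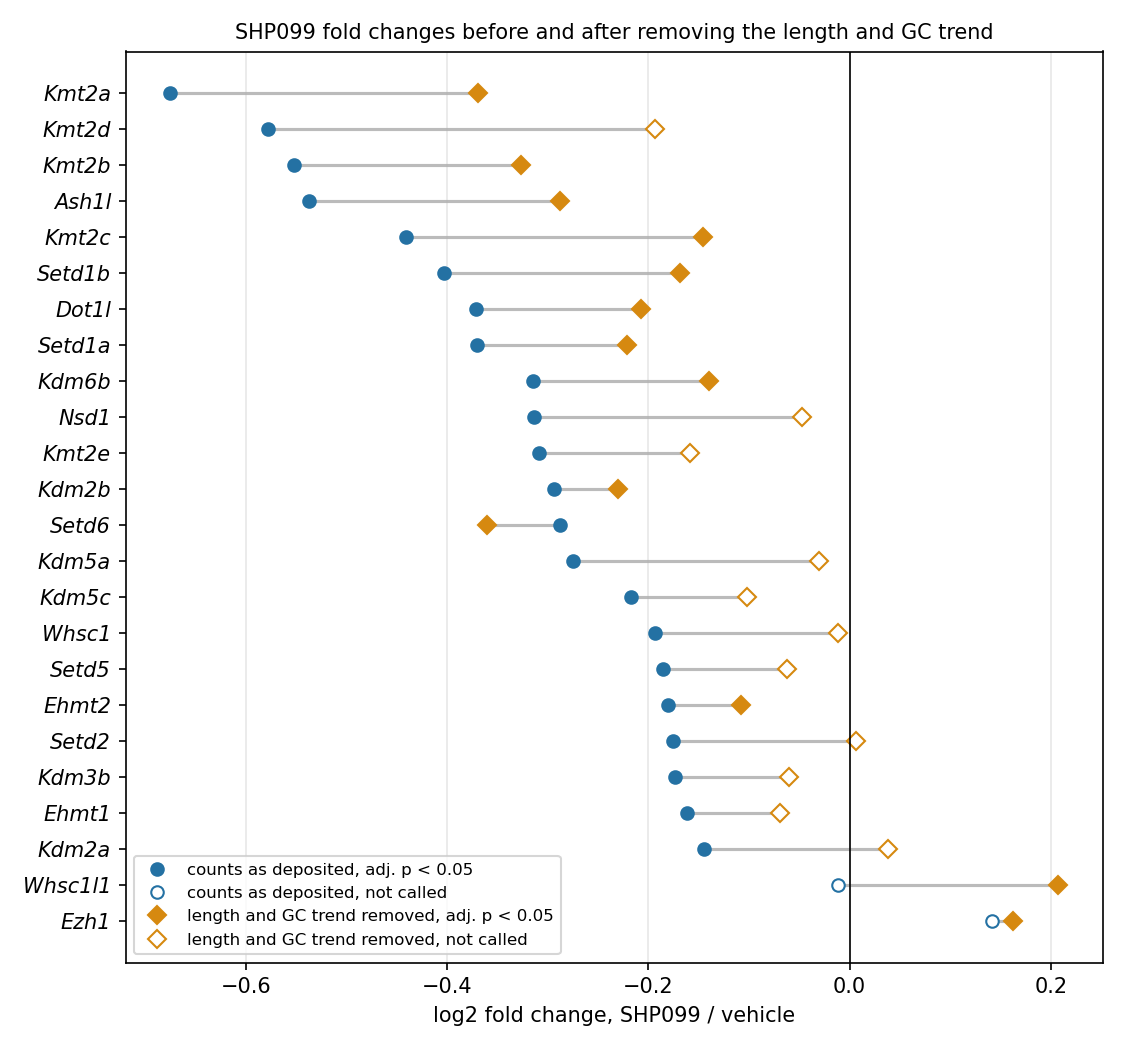
Log2 fold changes of SHP099 against vehicle in mutant cells (horizontal axis) for the 24 genes called before or after removal of the length and GC trend, as deposited (circles) and with the trend removed (diamonds); filled symbols have an adjusted p under 0.05. Kmt2a moves from -0.68 to -0.37 and stays called, whereas Nsd1 moves from -0.31 to -0.05 and does not.

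Between genotypes, 11 of the 44 genes were higher and 3 lower in mutant than in WT vehicle cells, against 16.9% higher and 14.7% lower among all genes tested (edgeR quasi-likelihood test, adjusted over 13270 genes). The median log2 fold change was 0.09, against 0.02 for all genes. The genes higher in mutant cells were Ash1l, Ehmt1, Ehmt2, Kdm2a, Kdm5a, Kdm5d, Kdm8, Nsd1, Setd1a, Setd2 and Whsc1, with values from 0.10 to 0.22. All 3 libraries of mutant cells lay above all 3 of WT in 13 genes (24.6% of all genes) and below in 4 (20.5%).

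The H3K36 methyltransferases had the most genes in this direction, with 4 of 5 higher. Nsd1 read 157, 159 and 155 CPM in WT libraries against 189, 183 and 176 CPM in mutant vehicle libraries (0.22 ± 0.04, adjusted p = 0.00334, edgeR), and Whsc1 read 182, 173 and 171 CPM against 204, 201 and 198 CPM (0.20 ± 0.04, adjusted p = 0.00305). Setd2 read 152 CPM in all 3 WT libraries against 174, 165 and 160.1 CPM (0.13 ± 0.04, adjusted p = 0.0396). Ash1l was higher by 0.21 ± 0.05 (adjusted p = 0.0147, edgeR). None of these 4 kept the call with the length and GC trend removed, at 0.09 (adjusted p = 0.0776), 0.06 (0.266), 0.01 (0.809) and 0.08 (0.215) in that order.

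Whsc1l1 was lower in mutant cells, at 94.8, 91.3 and 94.9 CPM in WT against 87.5, 87.0 and 87.0 CPM (-0.10 ± 0.03, adjusted p = 0.0304, edgeR), and at -0.21 with the trend removed (adjusted p = 0.00136). Ezh1 was lower, at 40.0, 36.7 and 38.6 CPM in WT against 31.7, 33.8 and 32.2 CPM (-0.24 ± 0.05, adjusted p = 0.00646, edgeR). Kdm6b was lower too, at 61.7, 61.1 and 58.3 CPM in WT against 54.4, 50.8 and 50.6 CPM (-0.22 ± 0.04, adjusted p = 0.00558, edgeR). The groups did not overlap in these 3 genes, and Ezh1 and Kdm6b kept their calls in all 18 alternatives of this comparison.

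Setd1a read 116, 115 and 122 CPM in WT libraries and was 0.13 ± 0.04 higher in mutant vehicle cells (adjusted p = 0.0323, edgeR). Ehmt1, at 78.3, 77.6 and 78.2 CPM against 85.7, 86.9 and 81.7 CPM, was higher by 0.12 ± 0.03 (adjusted p = 0.0276). Ehmt2, at 193, 200.1 and 197 CPM against 212, 211 and 211 CPM, was higher by 0.10 ± 0.03 (adjusted p = 0.0345). Together with Kdm8, a Jumonji-domain protein (14.9, 13.7 and 14.4 CPM against 17.2, 15.8 and 16.6 CPM, 0.20 ± 0.07, adjusted p = 0.0476), these were the genes of the 11 that passed with the trend removed. Their calls were not firm under other settings: Setd1a passed in 6, Ehmt1 in 4, Ehmt2 in 3 and Kdm8 in 3 of the 18 alternatives, and Ehmt1 did not pass with the block and the trend removed (adjusted p = 0.0622).

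Among demethylases, Kdm5a read 90.3, 90.9 and 88.8 CPM in WT and was 0.17 ± 0.04 higher in mutant vehicle cells (adjusted p = 0.00838, edgeR). Kdm2a read 120.4, 112 and 116 CPM in WT against 131, 125 and 127 CPM (0.14 ± 0.04, adjusted p = 0.0197). Kdm5d read 30.1, 28.2 and 30.1 CPM in WT and was higher by 0.16 ± 0.05 (adjusted p = 0.0311). These genes lost their calls with the trend removed, at 0.02, 0.06 and 0.05.

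Kmt2a, Kmt2c, Kmt2d, Dot1l, Ezh2, Kdm1a, Kdm5c and Kdm6a did not pass between genotypes, with log2 fold changes of 0.15, 0.02, 0.10, -0.02, 0.11, 0.07, 0.05 and 0.10 and adjusted p-values of 0.15, 0.777, 0.351, 0.704, 0.0723, 0.274, 0.386 and 0.124 in that order (edgeR). WT libraries stood at 71.6, 71.4 and 70.4 CPM for Kmt2c, at 141, 155 and 150.1 CPM for Kmt2d and at 133, 128 and 135 CPM for Ezh2. Kdm1a had 86.2, 84.7 and 95.1 CPM, Kdm5c 156, 162 and 158 CPM, and Kdm6a 53.8, 50.8 and 51.0 CPM in WT. Of these 8 genes, Ezh2 was the one whose WT and mutant vehicle libraries did not overlap.

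The count of 11 higher genes depended on the settings. It was 5 higher and 3 lower with DESeq2 size factors in edgeR (background 14.4% and 15.8%), and 6 higher and 4 lower with the length and GC trend removed (background 14.3% and 15.4%). With the replicate number as a block, which pairs no libraries between genotypes, 9 were higher and 2 lower (background 16.4% and 15%), and 6 and 4 with the trend also removed (background 14% and 16%). The share of all genes called higher moved as well. The count was 8 without WT replicate 1 (13.9% of all genes), 3 without WT replicate 2 (10.2%) and 4 without WT replicate 3 (11.6%). It was 6 without mutant vehicle replicate 1 (14.7%) or 2 (11.7%), and 5 without mutant vehicle replicate 3 (10%). It was 5 without SHP099 replicate 1 (13.9%) or 2 (13.5%), and 4 without SHP099 replicate 3 (12.6%), libraries outside the contrast that share its estimate of the spread, filter and scaling. Kdm5a, Nsd1 and Whsc1 were the genes of the 11 whose call was kept with every library left out. Setd2, Ehmt2 and Kdm8 lost theirs whichever of the 9 was left out. Ehmt1 lost its call in 8 of the 9 omissions, Setd1a and Kdm5d in 7, Kdm2a in 5 and Ash1l in 2. Whsc1l1 lost its call as a lower gene without WT replicate 1, mutant vehicle replicate 1 or mutant vehicle replicate 3. Markers of other cells moved with the genotype: 7 of 11 mature neutrophil genes, 7 of 9 mast cell and basophil genes, 6 of 6 megakaryocyte genes and 5 of 5 tested erythroid genes were lower in mutant cells. Among all genes 14.7% were lower. Mmp8, of the mature neutrophil list, was higher (log2 fold change 0.996, adjusted p = 0.00833, edgeR). Of 7 progenitor markers Cd34 was higher (0.80, adjusted p = 0.000419, edgeR) and 0 were lower. Megakaryocyte markers summed to 2070 to 2590 CPM in WT and 1005 to 1302 CPM in mutant vehicle libraries, and the part of these cells in the result was not tested.

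Against WT vehicle cells, SHP099-treated mutant cells had 17 of the 44 genes lower and 1 higher, with 16.3% and 15.4% of all genes as background. This comparison shares its libraries with the others, so its values are given side by side with theirs. Kmt2a was at 0.15 for mutant vehicle and -0.53 for treated mutant cells against WT, Kmt2b at 0.03 and -0.52, Dot1l at -0.02 and -0.39, and Ash1l at 0.21 and -0.33. Kdm6b was at -0.22 and -0.53, lower than WT under vehicle and lower again under SHP099. Nsd1 was at 0.22 and -0.10 (adjusted p = 0.0899 for treated cells), Whsc1 at 0.20 and 0.01 (adjusted p = 0.922) and Ezh1 at -0.24 and -0.10 (adjusted p = 0.165). The gene higher in treated cells was Ezh2, at 0.16 ± 0.04 (adjusted p = 0.0139, edgeR), a call lost without WT replicate 2, without SHP099 replicate 2 and with the trend removed (0.08, adjusted p = 0.159). With the trend removed 8 of the 44 were lower than in WT (background 13.5%). The 1 gene then higher (background 12.3%) was Kdm2a, which went from -0.01 to 0.09 (adjusted p = 0.0479). With the replicate block 16 were lower and 1 higher (background 17% and 15.1%), and 8 and 0 with the trend also removed (background 14.1% and 12.4%). Treated libraries lay below all WT libraries in 26 genes (23.5% of all genes) and above them in 2 (24.4%). Ash1l, Dot1l, Kdm2b, Kdm6b, Kmt2a, Kmt2b and Kmt2c were lower in all 18 alternatives. In the same comparison 6 of 6 megakaryocyte, 5 of 9 mast cell and basophil, 4 of 5 tested erythroid and 3 of 11 mature neutrophil markers were lower and 4 of 7 progenitor markers higher, and their part in the result was not tested.

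Counts in related gene lists are to be read against the shares of all genes, 13% lower and 8.81% higher with SHP099 and 14.7% lower and 16.9% higher between genotypes. Of 52 tested subunits and partners of the lysine methylation complexes 17 fell and 3 rose with SHP099, with a median log2 fold change of -0.09. They included Hcfc1, a COMPASS partner (-0.46), Bptf, an H3K4me3 reader (-0.42), and Wiz, a partner of G9a (-0.32), among those that fell, and Phf21a (0.27), Hdac1 (0.15) and Rbbp4 (0.12) among those that rose. The transcripts of Hcfc1 (8262 nt), Bptf (12036 nt) and Wiz (6426 nt) are in the longest length class, where 31.1% of all genes fell. Between genotypes 18 of the 52 were higher, among them Rbbp7 (0.28), Cbx5 (0.21) and Rbbp5 (0.19), and 3 lower, Phf1 (-0.54), Jarid2 (-0.33) and Mllt3 (-0.56).

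A list of SMYD, PRDM, Jumonji-domain and related genes outside the symbol rule, not all of them histone lysine enzymes, was also counted. With SHP099, 9 of its 25 tested genes were lower and none higher (median -0.15). Smyd5 (-0.35), Jmjd1c (-0.28) and Prdm2 (-0.23) were among them. The length trend was not removed for these counts. Between genotypes 4 were higher, including Smyd5 (0.34) and Rsbn1 (0.31), and Hr was lower (-1.49). Of 7 arginine methyltransferases 3 fell with SHP099, Carm1 (-0.37), Prmt5 (-0.34) and Prmt7 (-0.17). In mutant against WT cells 5 of the 7 were higher, among them Prmt5 (0.28), Prmt7 (0.25) and Prmt1 (0.22), and Prmt2 was lower (-0.73).

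Of 30 histone acetyltransferase and deacetylase genes 6 fell and 2 rose with SHP099, with a median of -0.02. The shares higher with SHP099 and higher or lower between genotypes were near those of all genes, so the genes are named as examples. The acetyltransferases Ep300 (-0.45), Crebbp (-0.42) and Kat6a (-0.34), with transcripts of 9566, 10820 and 9113 nt, fell, and the deacetylases Sirt2 (0.17) and Hdac1 (0.15) rose. Between genotypes 5 of the 30 were higher, including Kat2a (0.25), Hdac2 (0.18) and Kat7 (0.12), and 4 lower, including Sirt2 (-0.27), Hdac5 (-0.26) and Sirt7 (-0.20).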

How the data were processed

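Total RNA was sequenced as stranded poly-A libraries, per the labels' protocols. The authors deposited raw read counts per gene symbol. FastQC, STAR, Subread's featureCounts and the mm10 genome are named in the submitters' processing notes. Their versions, the annotation, and how strand and multi-mapped reads were handled are not given there, so overlapping or antisense reads cannot be told apart.

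The tools were R 4.3.3 and edgeR 4.0.16. The filter filterByExpr (minimum count 10) kept 13270 genes and left out 11151, TMM scaled the library sizes, and 1 quasi-likelihood fit held all 9 libraries, with group as its only term (biological coefficient of variation 9.04%). Tests were two-sided, adjusted by Benjamini-Hochberg over all genes with 0.05 as the threshold. The SE of a log2 fold change was taken from its size and the F statistic. Lengths and coordinates are from GENCODE M21 (GRCm38, the assembly also called mm10), where 24029 symbols matched and 24020 had a length. The trend removed was a lowess fit (span 0.3) per library on length and GC content. Other fits used DESeq2 1.42.0, its size factors, other count filters, each library left out, the replicate block, and 2 groups alone. The scripts were tested on simulated data.

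The genes and lists were chosen with earlier results of these data known. Values in every library were given for called genes (up to 12 with the smallest p per direction) and for a fixed set that included Kmt2a, Dot1l, Ezh2 and Kdm6b; of the other lists, the 3 smallest p per direction were named, except for an item not reported here. Replicates of the WT group may share a mouse, and then the p-values cover only the spread among these libraries, which may be technical. Mutant vehicle and SHP099 libraries numbered alike in their titles deviated together from their group means across genes (correlations 0.543, 0.596 and 0.561), whereas differently numbered ones gave -0.36 to -0.23, so the numbers pair them. Between WT and mutant libraries the numbers pair nothing.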

Additional observations from a re-analysis of the deposited data

How the results depend on the processing

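Shares of all genes called in the same fit and direction stand in brackets. The 22 falls with SHP099 (13%) were also 22 with DESeq2 size factors (11.9%), DESeq2 (12.7%) and the replicate block over all 9 libraries (12.5%). They were 22 too with no count filter (8.15%), and with at least 1 CPM (13.2%) or 10 counts (11.5%) in 3 libraries. With the replicate block in the mutant libraries alone they were 28 (21.3%). With a library left out they were 18 to 23 (8.11% to 13.1%), the 18 without SHP099 replicate 3 (8.19%). They were 11 with the length and GC trend removed (9.17%), 13 with the replicate block and the trend removed (8.87%), and 10 in the 2 groups alone with the trend removed (9.1%). The replicate block with the trend removed in the mutant libraries alone, and the 2 groups alone with the trend removed, were chosen after seeing the data. The 0 rises (8.81%) became 1 with DESeq2 (11.5%), with at least 1 CPM (11.9%) or 10 counts (10.3%) in 3 libraries, and with the block in the mutant libraries alone (21.5%). They became 1 with the block and the trend removed (8.26%), and 3 with both in the mutant libraries alone (21.8%). With the trend removed they were 2 in all libraries (7.57%) or in the 2 groups alone (7.65%), and with a library left out 0 to 1 (5.04% to 10.2%).

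Setd2 turned sign with the trend removed, to 0.0061 over all libraries, 0.0060 with the block, 0.0036 with the block in the mutant libraries alone and 0.0042 in the 2 groups alone. Kdm2a (-0.14 to 0.04) and Whsc1l1 (-0.01 to 0.21, called only afterwards) turned sign under the same 4 settings, with these values over all libraries. Kdm7a, at -0.02 as deposited, was at 0.22 with the trend removed over all libraries (adjusted p = 0.183, edgeR). It was called higher with the block and the trend removed in the mutant libraries alone (adjusted p = 0.000242, edgeR), and under no other setting. The cause was not tested.

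Shares of all genes called in the same fit and direction again stand in brackets. The 11 genes higher in mutant than WT cells (16.9%) became 5 with DESeq2 size factors (14.4%). They became 6 with DESeq2 (14.7%), at least 1 CPM (15.8%) or 10 counts (14.6%) in 3 libraries, the trend removed (14.3%), or the replicate block and the trend removed (14%). They became 3 in the 2 groups alone (11%), 9 with the replicate block (16.4%) or no count filter (11.8%), and 3 to 8 with a library left out (10% to 14.7%). The genes lower in mutant cells were 2 to 4 throughout (10.1% to 17.2%). For treated mutant against WT cells, the 17 lower genes (16.3%) became 8 with the trend removed, with the block (14.1%) or without it (13.5%). They were 16 with the block alone (17%), and 14 to 18 with a library left out (12.4% to 16.6%). The count of 1 higher gene (15.4%) was 0 with the block and the trend removed (12.4%), and 0 to 2 with a library left out (8.09% to 16.3%). With the trend removed it was 1 (12.3%), but Kdm2a in place of Ezh2. Kdm4d was too low to test, and Setd4 had a coefficient of variation of 18.3% in WT libraries. WT and mutant numbers pair no libraries, so the block over all 9 says nothing of pairing there.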
